A study of Mus musculus with 9 samples.

Results

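Type I interferon-stimulated effector genes were examined in single cell RNA sequencing of mouse bone marrow. The set comprised 40 genes chosen by symbol, and 39 of them had a row among the 31053 genes of the deposited UMI count matrix. Mx2 had none and is named only. Cells came from both femurs of 9 untreated female mice aged 9-10 weeks after lysis of red blood cells, with 1 library per mouse. There were 3 NZB mice, 3 NZW mice, and 3 NZBWF1 mice, the hybrid of a female NZW and a male NZB that serves as a model of systemic lupus erythematosus (SLE). The labels name no transgene, engineered allele, or treatment, and replicates are separate mice.

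After filtering, 39051 of 68444 barcodes were kept, 2455 to 5684 per mouse, with 8106539 to 18663189 UMIs per mouse and a median of 2182.5 to 2536.5 UMIs per barcode. Sums of marker gene UMIs placed 34690 barcodes in 15 classes, called "-like" here because the names rest on those markers alone. The libraries shared 557 barcode sequences. Free RNA, taken as the median UMIs of barcodes with at least 10 and under 100 UMIs, came to 0.485 to 0.776% of a median barcode. Levels are given as UMIs of a gene per 1000000 UMIs of the same class and mouse (CPM), and a log2 fold change was called where its Benjamini-Hochberg adjusted p, over all genes tested in the class, was below 0.05. The 3' libraries count ends of transcripts, so levels carry no length correction, and tests compared each gene only with itself. Sums over members, and a member's share of them, are of counted transcript ends.

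Type I interferons bind the receptor IFNAR1-IFNAR2 and signal through its kinases JAK1 and TYK2. The signal ends in a complex with IRF9 that binds interferon-stimulated response elements in promoters. The genes switched on in this way encode proteins that bind viral RNA, degrade it, block translation, alter nucleotide pools, or hold budding particles at the membrane. A raised level of such genes in blood cells is a known feature of human SLE, and plasmacytoid dendritic cells are known as strong producers of type I interferon.

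The members lie on many chromosomes, with several groups of neighbors. In the GRCm38 build (GENCODE vM21), Ifit2 (chr19:34550694-34576419), Ifit3 (chr19:34583531-34588731), Ifit3b (chr19:34607970-34613401), and Ifit1 (chr19:34640871-34650009) stand in a row. Rsad2 (chr12:26442746-26456452) and Cmpk2 (chr12:26469204-26479837) are adjacent and read from opposite strands. Oas2, Oas3, Oas1g, and Oas1a share a stretch of chromosome 5, with Oasl2 and Oasl1 elsewhere on it, while Parp14, Dtx3l, and Parp9 are neighbors on chromosome 16. In 4 pairs of close relatives, Ifit3 with Ifit3b, Oas1a with Oas1g, Trim30a with Trim30d, and Phf11b with Phf11d, reads may be shared, so the split within each pair is uncertain.

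Promoter sequence was read for the members from RefSeq on GRCm38.p6, the reference strain rather than NZB or NZW. A core of the response element, GAAA then any 2 bases (NN) then GAAA, on either strand, was searched in the 250 bases before each start. It was found in 12 of the 30 members with a promoter (40%) and in 936 of 27025 genes (3.46%). A match is a run of letters and says nothing of binding. Windows are shown for 5 of the 12 members with a match, picked for holding one and for being described below, with every match in capitals and the first one 156 to 78 bases before the start:
Isg15, chr4:156200865-156200906, minus strand: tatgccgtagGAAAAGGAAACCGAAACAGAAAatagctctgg
Ifit1, chr19:34640775-34640823, plus strand: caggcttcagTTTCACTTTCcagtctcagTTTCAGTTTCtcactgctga
Ifit3, chr19:34583363-34583426, plus strand: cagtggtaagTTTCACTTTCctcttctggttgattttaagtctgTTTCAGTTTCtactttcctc
Rsad2, chr12:26456553-26456582, minus strand: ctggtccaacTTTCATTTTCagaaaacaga
Bst2, chr8:71537577-71537612, minus strand: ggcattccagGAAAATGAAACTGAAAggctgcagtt
The Isg15 window holds 3 overlapping matches. The windows of Ifit1 and Ifit3 each hold 2 matches on the strand opposite to the gene, and the Ifit3 window is identical, letter for letter, to that of Ifit3b. The members with a promoter outside the 12 had no match in the 250 bases searched. Of these members without a match, Isg20, Ifit2, Oasl1, Oasl2, Ifi44, Ifih1, Ddx58, Samd9l, Herc6, Cmpk2, Eif2ak2, Lgals3bp, and Phf11d were also called between strains in a whole class.

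The members were unevenly spread over marrow cell classes. Among the 11 classes with at least 8 mice, their summed level was highest in plasmacytoid dendritic cell-like (pDC-like) cells, with a mean of 5068 CPM over 9 mice, followed by monocyte-like cells with 2279 CPM, and lowest in plasma cell-like cells with 437 CPM over 8 mice. Conventional dendritic cell-like cells (3986 CPM over 2 NZW mice) and macrophage-like cells (3506 CPM over 3 mice) were too few in the other mice to be placed in this order. Bst2, which encodes tetherin, a membrane protein that holds budding virus particles and is itself a surface marker of mouse pDC, supplied 60.7% of the member UMIs in pDC-like cells. In monocyte-like cells the leading member was Ifi27l2a, a small interferon-induced membrane protein, with 33.7%. By mean CPM over the mice, in classes with all 9, monocyte-like cells were the highest class for 13 members, pDC-like cells for 11, and T-cell-like cells for 7, with the other 8 spread over 5 further classes. Among these classes with all 9 mice, Isg20, an exonuclease that degrades RNA, was highest in erythroid-like cells, with 116 CPM against 18.5 CPM in the next. Plasma cell-like cells, with 8 mice, stand outside that order, and Isg20 was their leading member, with 19.3% of the member UMIs.

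**Figure D1:**
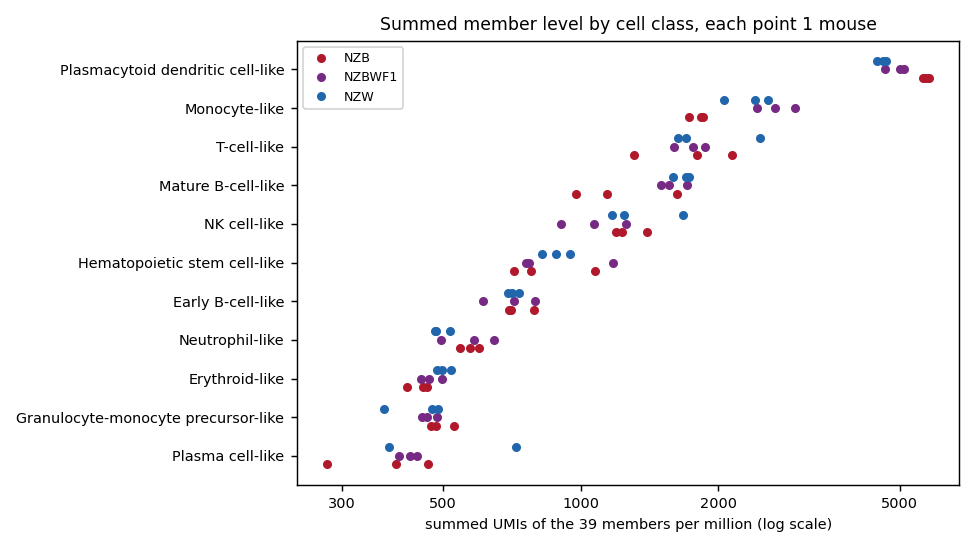
Summed level of the 39 members in CPM in 11 cell classes, on a log axis, with each point 1 mouse colored by strain. In pDC-like cells the NZB mice sit to the right of the NZW mice, and in monocyte-like cells to the left.

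In the pDC-like cells, the summed level was 5802, 5715, and 5617 CPM in the 3 NZB mice, 4674, 4600, and 4453 CPM in the NZW mice, and 5108, 4647, and 4993 CPM in the NZBWF1 mice. In monocyte-like cells, it was 1858, 1831, and 1727 CPM in NZB, 2056, 2575, and 2409 CPM in NZW, and 2432, 2670, and 2952 CPM in NZBWF1. The NZB mice were thus the highest in the former class and the lowest in the latter, with no overlap with the NZW mice in either. Each sum mixes the amount of RNA per cell with the states of the cells in the class, and these cannot be told apart.

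NZB was compared with NZW to ask where the parents of the cross differed. Over 12 classes, 185 tests of a member in a class could be made, and 36 were called, with NZB higher in 15 and lower in 21. Of all tests over all genes, 9% were called. The calls fell in monocyte-like (17), pDC-like (8), and neutrophil-like (6) cells, in granulocyte-monocyte precursor-like cells (3), and in the erythroid-like and plasma cell-like classes (1 each). With DESeq2 in place of edgeR, 22 were called, and with barcodes of at least 2000 UMIs and 1000 genes, 12.

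Monocyte-like cells held the greatest number of calls. The class had 4660 cells, 226 to 805 per mouse, with a median of 60.5 monocyte marker UMIs per 10000 and 12.4 of neutrophil markers, and 64 cells lay within 25% above its threshold. All 17 called members were lower in NZB, of 35 tested, and none was higher. Among all genes of the class, 23.3% were called, with 11.2% lower in NZB. The median log2 fold change was -0.71 over the members and -0.01 over all genes. Of the 17 calls, 11 stayed past the threshold with each mouse left out in turn. With the deeper barcodes, those of at least 2000 UMIs and 1000 genes, 5 members were called and 1 of these was higher in NZB.

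The IFIT proteins bind viral RNA and block its translation, and Ifit3 had the widest fitted difference of the members tested in the class. Ifit3 was at 1.22, 1.14, and 0.997 CPM in the NZB mice, 19.5, 36.4, and 35.2 CPM in the NZW mice, and 20.2, 36.7, and 53.7 CPM in the NZBWF1 mice. All NZB mice were far below every other mouse, and the counts were 4 UMIs in NZB against 140 in NZW, a ratio of 27.9 with a 95% counting interval of 10.6 to 104. The fitted log2 fold change was -4.66 ± 0.52 (SE; edgeR adjusted p = 2.93e-07). In neutrophil-like cells of the same NZB mice, Ifit3 was at 2.41, 1.29, and 8.77 CPM, beside 2.76, 3.60, and 3.20 CPM in NZW. Its transcripts were thus counted in NZB cells of another class. Reads were aligned to the reference mouse genome, and an effect of strain sequence on counting was not tested.

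Ifit1 was at 3.65, 2.85, and 5.98 CPM in NZB, 18.7, 20.4, and 25.5 CPM in NZW, and 9.30, 26.5, and 28.4 CPM in NZBWF1. The NZB and NZW values did not overlap (log2 fold change -2.43 ± 0.38, edgeR adjusted p = 1.03e-05). Ifit2 was at 3.65, 3.98, and 3.99 CPM in NZB, 17.1, 28.1, and 24.9 CPM in NZW, and 3.101, 17.5, and 28.4 CPM in NZBWF1 (-2.56 ± 0.46, edgeR adjusted p = 0.000281). NZBWF1 replicate 1 was at the NZB level for Ifit2. Ifit3b, the close relative of Ifit3, had no UMI in NZB, 15 in NZW, and 18 in NZBWF1, which is at least 3.98-fold and 5.95-fold higher on a floor of 3 counts over the NZB group. It was too low to be tested in the class.

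The OAS family makes oligoadenylates that activate RNase L, an enzyme that cuts viral and cellular RNA. Oasl2 was at 14.6, 9.11, and 14.0 CPM in NZB, 28.8, 40.2, and 55.3 CPM in NZW, and 46.5, 47.0, and 52.1 CPM in NZBWF1 (log2 fold change of NZB against NZW -1.81 ± 0.25, edgeR adjusted p = 1.09e-06). Oas3 was at 7.31, 10.8, and 8.97 CPM in NZB, 19.5, 33.8, and 28.5 CPM in NZW, and 38.8, 22.3, and 28.4 CPM in NZBWF1 (-1.53 ± 0.28, edgeR adjusted p = 9.65e-05). For both genes the NZB mice lay below all others. Oasl1, a relative known to restrain translation of Irf7 mRNA, was at 3.65, 1.14, and 0 CPM in NZB, 10.9, 11.5, and 10.9 CPM in NZW, and 3.101, 6.62, and 9.20 CPM in NZBWF1. Its counts were 5 UMIs in NZB and 50 in NZW, a ratio of 7.96 with a 95% counting interval of 3.19 to 25.6 (fitted log2 fold change -2.89 ± 0.56, edgeR adjusted p = 0.000177). Oas1a and Oas2 were not called in any class.

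Of the enzymes of nucleotide and RNA metabolism, Rsad2 and Cmpk2 were lower in NZB, while the exonuclease gene Isg20 was at 5.69 to 13.4 CPM in NZB and 6.22 to 14.0 CPM in NZW (log2 fold change 0.07 ± 0.40, edgeR adjusted p = 0.929). Rsad2 encodes viperin, which makes a chain-terminating nucleotide, and its neighbor Cmpk2 encodes a mitochondrial nucleotide kinase. Rsad2 was at 4.87, 5.12, and 3.99 CPM in NZB, 28.0, 34.5, and 29.2 CPM in NZW, and 18.6, 25.3, and 26.1 CPM in NZBWF1 (log2 fold change -2.66 ± 0.30, edgeR adjusted p = 1.48e-08). Cmpk2 was at 28.0, 19.9, and 17.95 CPM in NZB, 42.8, 40.8, and 41.3 CPM in NZW, and 48.1, 46.4, and 43.7 CPM in NZBWF1 (-0.95 ± 0.20, edgeR adjusted p = 0.000451). Neither gene overlapped between NZB and the other strains. Samd9l, a cytoplasmic inhibitor of translation, was at 70.6, 50.1, and 58.8 CPM in NZB, 93.4, 96.4, and 115 CPM in NZW, and 93.0, 119, and 108 CPM in NZBWF1 (-0.80 ± 0.15, edgeR adjusted p = 8.21e-05).

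Among membrane and secreted products, Bst2 was at 93.8, 66.6, and 72.8 CPM in NZB, 121, 163, and 165 CPM in NZW, and 136, 143, and 136 CPM in NZBWF1 (log2 fold change -0.98 ± 0.14, edgeR adjusted p = 9.12e-07). Rtp4, a chaperone that brings receptors to the cell surface, was at 10.96, 7.97, and 12.96 CPM in NZB, 28.0, 42.1, and 30.4 CPM in NZW, and 26.4, 32.5, and 41.4 CPM in NZBWF1 (-1.72 ± 0.26, edgeR adjusted p = 5.99e-06). The secreted glycoprotein gene Lgals3bp was at 17.0, 10.2, and 8.97 CPM in NZB, 17.9, 24.3, and 24.9 CPM in NZW, and 38.8, 19.3, and 23.0 CPM in NZBWF1, with the highest NZB mouse just under the lowest NZW mouse (-0.95 ± 0.29, edgeR adjusted p = 0.0133).

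Isg15, a ubiquitin-like protein that is both conjugated to other proteins and secreted, was at 42.6, 30.2, and 12.0 CPM in NZB, 46.7, 53.0, and 48.0 CPM in NZW, and 62.0, 62.0, and 69.0 CPM in NZBWF1. The NZB mice ranged widely and stayed below the NZW mice (log2 fold change -0.81 ± 0.23, edgeR adjusted p = 0.0121). Herc6, the ligase that attaches ISG15 in mice, was at 17.0, 17.6, and 16.9 CPM in NZB and 25.7, 31.9, and 27.9 CPM in NZW (-0.71 ± 0.22, edgeR adjusted p = 0.0169). Ifih1, which encodes the double-stranded RNA sensor MDA5, was at 14.6, 15.4, and 17.9 CPM in NZB, 23.3, 27.4, and 26.1 CPM in NZW, and 35.7, 31.3, and 30.7 CPM in NZBWF1 (-0.68 ± 0.23, edgeR adjusted p = 0.0276). The ADP-ribosyltransferase gene Parp14 was at 48.7, 47.2, and 63.8 CPM in NZB, 62.2, 80.4, and 91.7 CPM in NZW, and 69.8, 101, and 83.6 CPM in NZBWF1 (-0.57 ± 0.16, edgeR adjusted p = 0.00952). The PHD finger gene Phf11d was at 6.09, 3.98, and 0.997 CPM in NZB, 8.56, 15.96, and 9.11 CPM in NZW, and 9.30, 12.0, and 9.97 CPM in NZBWF1 (-1.60 ± 0.44, edgeR adjusted p = 0.00704). Parp14 was the only called member of the class whose NZB and NZW values overlapped. The calls of Isg15, Herc6, Ifih1, Lgals3bp, Parp14, and Phf11d were lost when certain single mice were left out. NZB replicate 3 and NZW replicate 2 ended that of Isg15, with log2 fold changes of -0.47 and -0.75. Isg15, Ifih1, and Parp14 also changed sign in the cells with a division gene UMI, as given below.

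**Figure D2:**
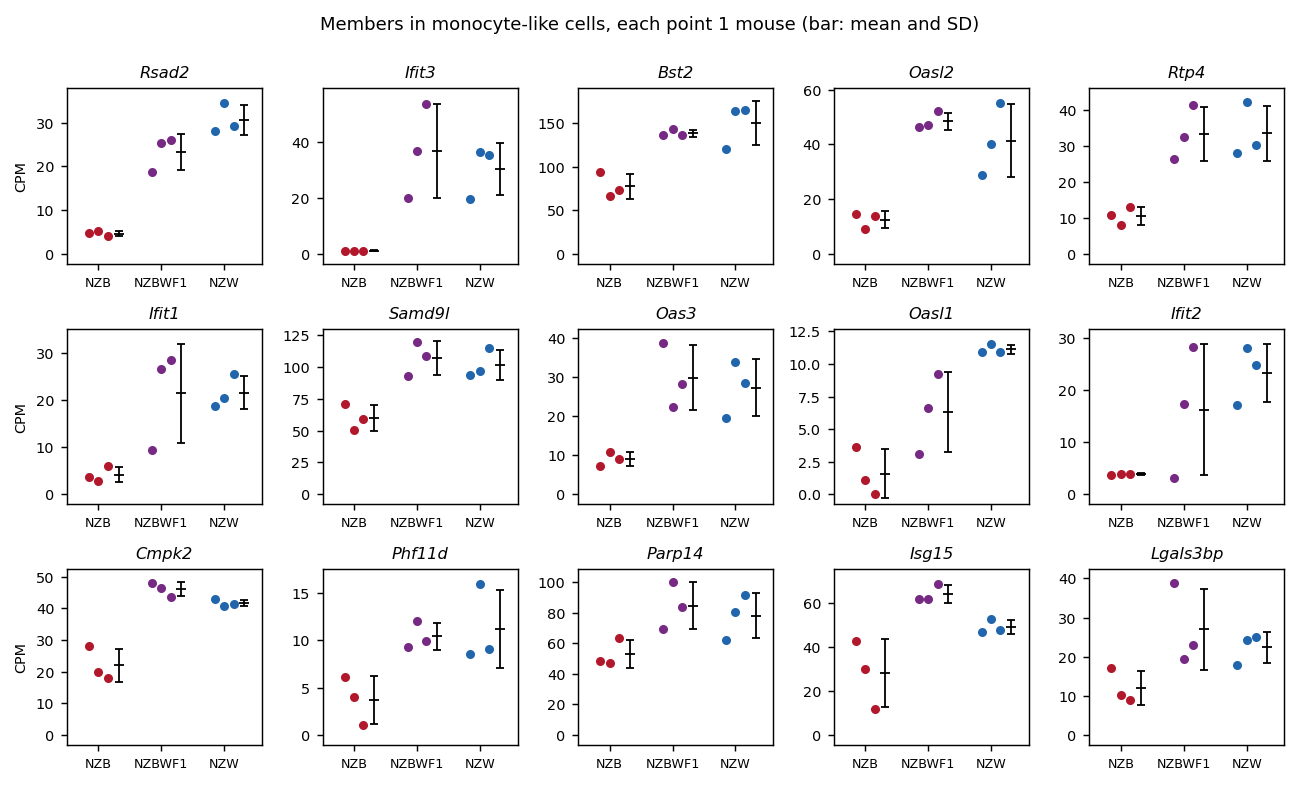
Level in CPM of 15 members in monocyte-like cells, with each point 1 mouse and a bar for the mean and SD of each strain (n = 3). NZB mice sit lowest for nearly all 15 genes, with Ifit3 at 0.997 to 1.22 CPM, and NZBWF1 mice lie near NZW mice for most.

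The monocyte-like cells of the strains differed in more than these genes. A UMI of at least 1 of 6 division genes (Mki67, Top2a, Cdk1, Ccnb1, Ccna2, and Birc5) was present in 58.1, 81.8, and 61.5% of NZB cells, 38.3, 37.9, and 37.2% of NZW cells, and 35.0, 32.7, and 37.5% of NZBWF1 cells. After each cell was thinned to 1000 UMIs, the shares were 48.0, 75.4, and 55.7% in NZB, 31.8, 33.02, and 30.9% in NZW, and 29.2, 28.6, and 30.2% in NZBWF1, so the NZB mice remained highest at equal depth. In mature B-cell-like cells, which are mostly at rest, the thinned shares were 0.784 to 18.3% at median depths of 1177 to 1384 UMIs. Median UMIs per cell in monocyte-like cells were 2831 to 3349 in NZB, 1646 to 2183 in NZW, and 1741 to 2392 in NZBWF1. Precursor markers summed to 14.5-23.1 UMIs per 10000 in NZB, 9.97-11.8 in NZW, and 8.39-10.2 in NZBWF1, with none of the 6 at 0. The 13 neutrophil markers, also with none at 0, summed to 35.1-64.0, 24.4-27.2, and 16.2-26.9. Cx3cr1, a marker of mature monocytes, was at 19.4-42.9 CPM in NZB, 80.1-154 CPM in NZW, and 107-140 CPM in NZBWF1. Of the other monocyte markers, Csf1r and Fn1 were also lower in all NZB than in all NZW mice. F13a1, Ly86, Ccr2, Treml4, and Ace overlapped between the 2 strains. Depth, precursor markers, and division genes were thus higher in the strain with the lower member levels, and their part in the result was not tested beyond the splits that follow.

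The comparison was repeated on either side of the division genes, a split chosen after the data were seen. It was made on all UMIs of a cell, so deeper cells fall more readily on the side with a division gene UMI. In the 2558 monocyte-like cells without a division gene UMI, 13 of 35 members tested were lower in NZB and none was higher, beside 5.92% of all genes called lower. The median log2 fold change of the members there was -0.87. Ifit3 (-4.34 ± 0.60), Ifit1 (-2.63 ± 0.52), Rsad2 (-2.59 ± 0.42), and Oasl2 (-1.45 ± 0.31) all differed in these cells as they did in the whole class. In the 2102 cells with such a UMI, only 20 members could be tested and 6 were called, beside 13.8% of all genes. The median log2 fold change of these 20 was 0.26, against -0.02 over all genes. Isg15 (0.77 ± 0.68), Ifih1 (0.47 ± 0.42), and Parp14 (0.15 ± 0.21), each called lower in NZB in the whole class, had the opposite sign there and were not called.

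In the cells with a division gene UMI, 4 members were higher in NZB and 2 were lower. Those higher were Zbp1 (1.14 ± 0.22, edgeR adjusted p = 0.000135), a sensor of Z-form nucleic acid, Xaf1 (1.07 ± 0.30, edgeR adjusted p = 0.0104), Trim30a, and the nuclear body gene Sp100. Those lower were Bst2 (-0.84 ± 0.16, edgeR adjusted p = 8.02e-05) and Cmpk2 (-0.76 ± 0.26, edgeR adjusted p = 0.0411). The strain difference itself differed between cells with and without a division gene UMI for 5 of 35 members, Sp100, Zbp1, Phf11b, Xaf1, and Ifi27l2a, beside 1.77% of all genes. That count was 3 without NZB replicate 1 or NZW replicate 1 and 1 without NZB replicate 2. Leaving out the cells with a UMI of Treml4 or Ace, markers of patrolling monocytes, left 16 of 35 members lower in NZB, beside 11.4% of all genes.

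**Figure D3:**
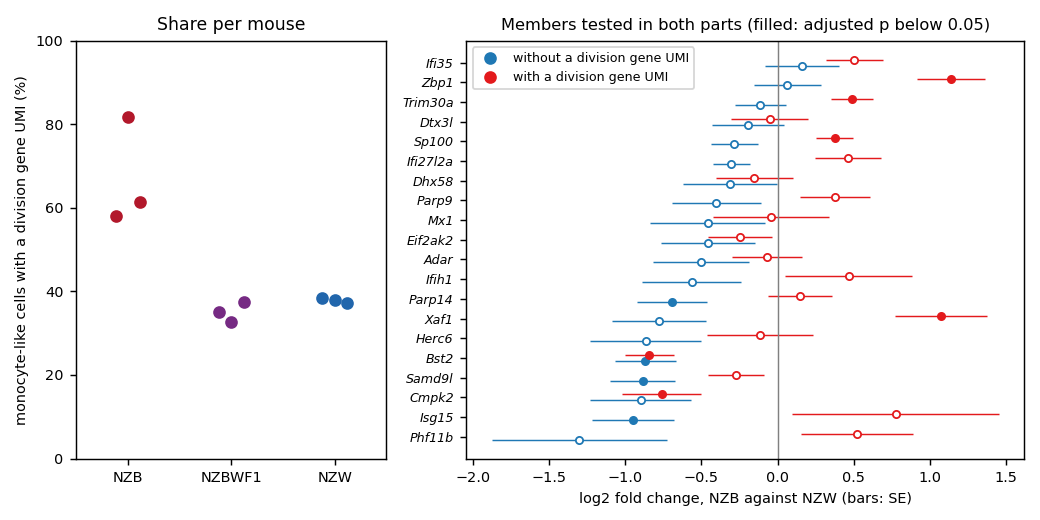
Left, percent of monocyte-like cells with a division gene UMI, each point 1 mouse, from 32.7 to 81.8%. Right, log2 fold change of NZB against NZW with its standard error for the 20 members tested both in cells with (red) and without (blue) such a UMI, where filled points are called and most blue points lie left of the red ones.

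Thinning each cell to 1000 UMIs set depth equal, and no kept cell was too shallow. The share of monocyte-like cells with at least 5 different members among those UMIs was then 2.15 to 3.06% in NZB, 7.79 to 10.2% in NZW, and 10.6 to 11.5% in NZBWF1. Before thinning the shares were 27.2 to 36.6%, 23.1 to 25.9%, and 24.0 to 34.5%. The order of NZB and NZW thus reversed once depth was made equal, and the thinned order is that of the CPM.

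In pDC-like cells the strain difference ran the other way. Of 20 members tested, 8 were higher in NZB and none was lower. Among all genes of the class, 8.33% were called, with 4.23% higher in NZB. The median log2 fold change was 0.51 over the members, and all 20 had a positive value. The class held 2391 cells, with a median of 64.0 pDC marker UMIs per 10000 and 7.003 of neutrophil markers. Its cells were unevenly spread, with 325, 556, and 313 in the NZB mice and 118, 159, and 134 in the NZW mice. The NZBWF1 mice gave 105, 310, and 371. Of the 8 calls, those of Ifi44, Isg15, and Trim30d stayed past the threshold with each mouse left out in turn, although Trim30d could be tested in 7 of the 9 such fits. Leaving out single mice gave 4 to 9 calls, with 4 without NZW replicate 3 and 5 without NZB replicate 3 or NZW replicate 1.

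Ifi44, an interferon-induced protein with antiviral activity, was at 102, 68.4, and 80.7 CPM in the NZB mice, 15.5, 30.6, and 32.9 CPM in the NZW mice, and 78.1, 32.4, and 33.2 CPM in the NZBWF1 mice. All NZB mice were above all NZW mice (log2 fold change 1.69 ± 0.31, edgeR adjusted p = 2.75e-05). Isg15 was at 85.1, 111, and 63.2 CPM in NZB, 27.1, 46.0, and 21.9 CPM in NZW, and 78.1, 24.8, and 48.4 CPM in NZBWF1 (1.52 ± 0.32, edgeR adjusted p = 0.000722). Its ligase Herc6 moved with it, at 65.0, 59.0, and 56.1 CPM in NZB, 15.5, 38.3, and 29.2 CPM in NZW, and 50.8, 40.03, and 41.5 CPM in NZBWF1 (1.16 ± 0.31, edgeR adjusted p = 0.00679). The call of Herc6 was lost without NZW replicate 1, at 0.89. NZB and NZW did not overlap for any of these 3 genes, and 1 NZBWF1 mouse, replicate 1, was in the NZB range for Ifi44 and Isg15.

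Trim30d, one of a cluster of interferon-induced TRIM genes, had 52 UMIs in NZB and 3 in NZW, a ratio of 7.01 with a 95% counting interval of 2.27 to 35.1. It was at 30.96, 22.8, and 26.3 CPM in NZB, 0, 7.66, and 3.65 CPM in NZW, and 11.7, 1.91, and 16.6 CPM in NZBWF1. Parp9, which pairs with the ubiquitin ligase DTX3L, was at 68.1, 73.8, and 91.2 CPM in NZB, 42.5, 49.8, and 29.2 CPM in NZW, and 39.1, 26.7, and 56.7 CPM in NZBWF1 (0.98 ± 0.28, edgeR adjusted p = 0.0127). Parp14 was at 74.3, 72.4, and 89.5 CPM in NZB, 27.1, 65.1, and 40.2 CPM in NZW, and 46.9, 47.7, and 55.3 CPM in NZBWF1 (0.87 ± 0.27, edgeR adjusted p = 0.0243). In each of these genes the lowest NZB mouse stood above the highest NZW mouse. The call of Parp9 was lost without NZB replicate 3 or NZW replicate 3 (0.77 to 0.86), and that of Parp14 without these or NZW replicate 1 (0.63 to 0.79).

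Phf11b, a PHD finger gene, was at 54.2, 61.7, and 64.9 CPM in NZB, 27.1, 49.8, and 18.3 CPM in NZW, and 50.8, 34.3, and 38.7 CPM in NZBWF1 (0.98 ± 0.31, edgeR adjusted p = 0.0269). Its call was lost without NZB replicate 2, NZB replicate 3, NZW replicate 1, or NZW replicate 3, at 0.68 to 0.95. Bst2, the member with the most UMIs in the class, was at 3386, 3196, and 3517 CPM in NZB, 2999.7, 2716, and 2744 CPM in NZW, and 3159, 3019, and 3151 CPM in NZBWF1. Its difference was small (log2 fold change 0.30 ± 0.09, edgeR adjusted p = 0.0119), and was lost without NZB replicate 3, NZW replicate 2, or NZW replicate 3, at 0.27 to 0.28. In the 2172 pDC-like cells without a division gene UMI, 4 of 21 members tested were called higher, beside 6.99% of all genes called in either direction, and Bst2 was at 0.15 ± 0.08. With DESeq2, 3 members of the class were called, with at most 5% mitochondrial UMIs 1, and with the deeper barcodes none by edgeR. Some members could not be tested in the last 2 settings. Of the 66 calls over all classes and comparisons, 55 could be tested at the 5% limit and 46 with the deeper barcodes. In the whole class edgeR called 8, and 13 of 20 members had an unadjusted p below 0.05, beside 1305 of 7111 genes.

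The pDC-like class also differed in other genes. Siglech, a defining receptor of mouse pDC, was at 2214 to 2445 CPM in NZB, 665 to 728 CPM in NZW, and 1330 to 1546 CPM in NZBWF1. Of the 9 pDC markers, Siglech, Ccr9, Upb1, and Smim5 were higher in all NZB than in all NZW mice, Cox6a2, Runx2, and Pacsin1 were lower in all NZB mice, and Spib and Cd300c overlapped. The sum of these 9 markers set the class. How their strain differences affected which cells entered it was not tested. Cox6a2 was at 858 to 937 CPM in NZB, 1238 to 1383 CPM in NZW, and 1077 to 1219 CPM in NZBWF1. After thinning to 1000 UMIs, a division gene UMI was present in 4.62 to 7.35% of NZB, 7.63 to 19.4% of NZW, and 3.81 to 8.63% of NZBWF1 pDC-like cells. Mature B-cell markers summed to 5.05-5.40 UMIs per 10000 in NZB, 8.54-11.5 in NZW, and 6.58-8.2004 in NZBWF1, with 1 of 13 at 0. Plasma cell markers summed to 4.42-5.20, 6.83-8.35, and 6.94-8.59, with none of 9 at 0. The part of these differences in the member levels was not tested. After thinning to 1000 UMIs, 8.95 to 14.9% of NZB cells, 4.48 to 6.29% of NZW cells, and 5.81 to 12.4% of NZBWF1 cells had at least 5 different members.

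**Figure D4:**
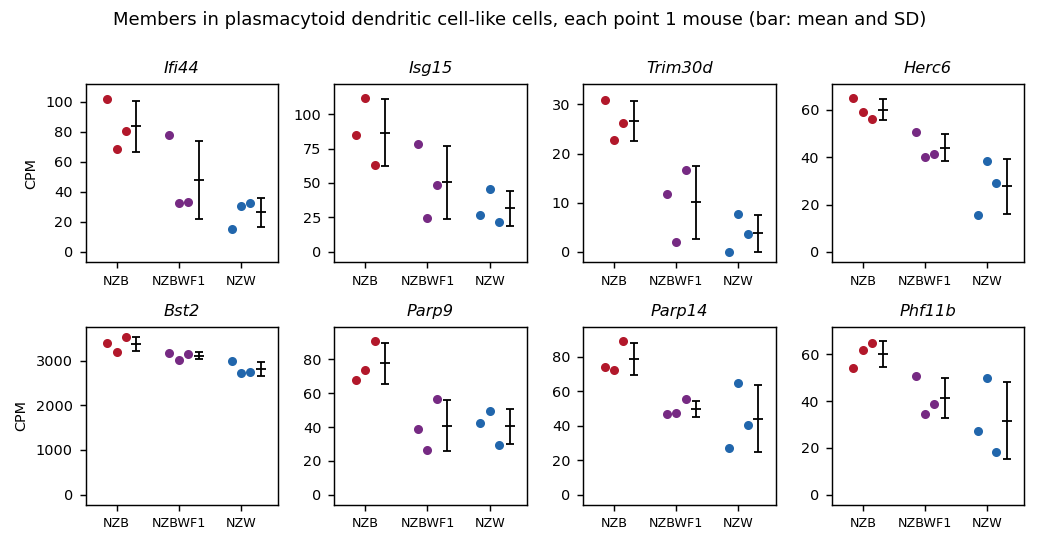
Level in CPM of the 8 members called between NZB and NZW in pDC-like cells, with each point 1 mouse and a bar for the mean and SD of each strain (n = 3). The NZB mice lie above the NZW mice in every panel, as for Trim30d with 22.8 CPM or more against at most 7.66 CPM.

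Neutrophil-like cells, 12279 in all with a median of 4828 neutrophil marker UMIs per 10000, expressed the members at a low level. Of 29 members tested, 5 were higher and 1 was lower in NZB, beside 11% of all genes called. Rtp4 was at 25.2, 16.9, and 20.01 CPM in NZB, 6.66, 6.09, and 8.37 CPM in NZW, and 16.5, 8.24, and 15.01 CPM in NZBWF1 (log2 fold change 1.70 ± 0.26, edgeR adjusted p = 0.000273). This gene was lower in NZB in monocyte-like cells and higher in neutrophil-like cells of the same mice. Ifi27l2a was at 67.5, 59.98, and 40.03 CPM in NZB, 30.1, 36.0, and 25.8 CPM in NZW, and 45.5, 57.7, and 59.1 CPM in NZBWF1 (1.046 ± 0.20, edgeR adjusted p = 0.00271). Trim30a, a TRIM protein known to damp signaling to NF-kB, was at 30.7, 35.6, and 30.98 CPM in NZB, 18.4, 16.6, and 20.4 CPM in NZW, and 31.4, 20.003, and 32.8 CPM in NZBWF1 (0.98 ± 0.18, edgeR adjusted p = 0.00137).

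Isg15 (0.74 ± 0.21) and Ifit1 (1.32 ± 0.40) were also higher in NZB neutrophil-like cells, although the call of Ifit1 was lost with any 1 of the 6 parental mice left out, at 1.11 to 1.48. That of Isg15 was lost without NZB replicate 1, NZB replicate 3, NZW replicate 2, or NZW replicate 3, at 0.63 to 0.71. Eif2ak2, which encodes the RNA-activated kinase PKR that halts translation, was the member lower in NZB, at 6.55, 8.35, and 9.32 CPM against 12.6, 17.7, and 16.0 CPM in NZW and 9.93, 10.4, and 9.85 CPM in NZBWF1 (-0.74 ± 0.19, edgeR adjusted p = 0.0174). Its call was lost without NZB replicate 1, NZB replicate 2, NZW replicate 2, or NZW replicate 3, at -0.75 to -0.67. The count of 6 fell to 3 without NZB replicate 1, NZW replicate 2, or NZW replicate 3, and to 2 with the deeper barcodes. It rose with the replicate number as a block, as given in the last section. T-cell markers summed to 0.103-0.126 UMIs per 10000 in NZB neutrophil-like cells, 1.43-2.30 in NZW, and 0.991-1.47 in NZBWF1, with none of 10 at 0, and their part in these calls was not tested.

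Granulocyte-monocyte precursor-like cells had 3 called members of 22 tested, beside 11.8% of all genes. Zbp1 was at 13.5, 9.35, and 6.16 CPM in NZB, 3.47, 4.21, and 3.86 CPM in NZW, and 3.57, 4.22, and 5.44 CPM in NZBWF1 (log2 fold change 1.21 ± 0.38, edgeR adjusted p = 0.0265). Trim30a was higher in NZB (0.46 ± 0.15) and Bst2 was lower (-0.49 ± 0.12). With at most 5% mitochondrial UMIs, Bst2 turned to 0.10 (edgeR adjusted p = 0.867). In erythroid-like cells, Isg20 alone was called of 23 members tested, beside 8.91% of all genes. It was at 102, 87.6, and 103 CPM in NZB, 156, 129, and 127 CPM in NZW, and 148, 95.9, and 92.6 CPM in NZBWF1 (-0.47 ± 0.13, edgeR adjusted p = 0.0182). In plasma cell-like cells Bst2 was called of 5 members tested, beside 2.04% of all genes, at 70.1, 61.1, and 26.9 CPM in NZB against 261 and 121 CPM in the 2 NZW mice that entered (-1.68 ± 0.37). NZW replicate 1, with 6 such cells, was left out of that fit. None of these 5 calls stayed past the threshold with every mouse left out in turn.

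Whether the strain difference was itself different between classes was tested with the mouse as a block. Between monocyte-like and pDC-like cells, 17 of 33 members differed, each with a more positive value in pDC-like cells, beside 8.19% of all genes. Bst2 differed by 1.30 ± 0.14 on the log2 scale (edgeR adjusted p = 5.79e-12) and Isg15 by 2.37 ± 0.36 (edgeR adjusted p = 4.62e-07). These genes were lower in NZB in the former class and higher in the latter, as were Herc6 and Parp14. The count was 11 without NZB replicate 2 and 9 without NZW replicate 3. Between neutrophil-like and monocyte-like cells, 15 of 37 members differed, all more negative in monocyte-like cells, beside 7.71% of all genes, and 9 did without NZW replicate 2. Rtp4 differed by -3.34 ± 0.35 (edgeR adjusted p = 1.15e-07) and Ifit3 by -4.99 ± 0.66 (edgeR adjusted p = 6.64e-06).

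Between early B-cell-like and monocyte-like cells, 4 of 35 members differed (Isg15, Lgals3bp, Eif2ak2, and Ifit2), beside 4.45% of all genes. Between neutrophil-like and early B-cell-like cells, 2 of 31 differed (Trim30a and Eif2ak2), beside 2.23%. The former count was 2 without NZB replicate 1 or NZW replicate 3 and 1 without NZB replicate 3. The latter was 0 (by edgeR) without NZB replicate 2, 1 without NZW replicate 2 or 3, 5 without NZBWF1 replicate 1, and 4 without NZBWF1 replicate 2 or 3. Isg15 and Lgals3bp had only 14 and 10 UMIs in NZB early B-cell-like cells, with the most in replicate 1.

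**Figure D5:**
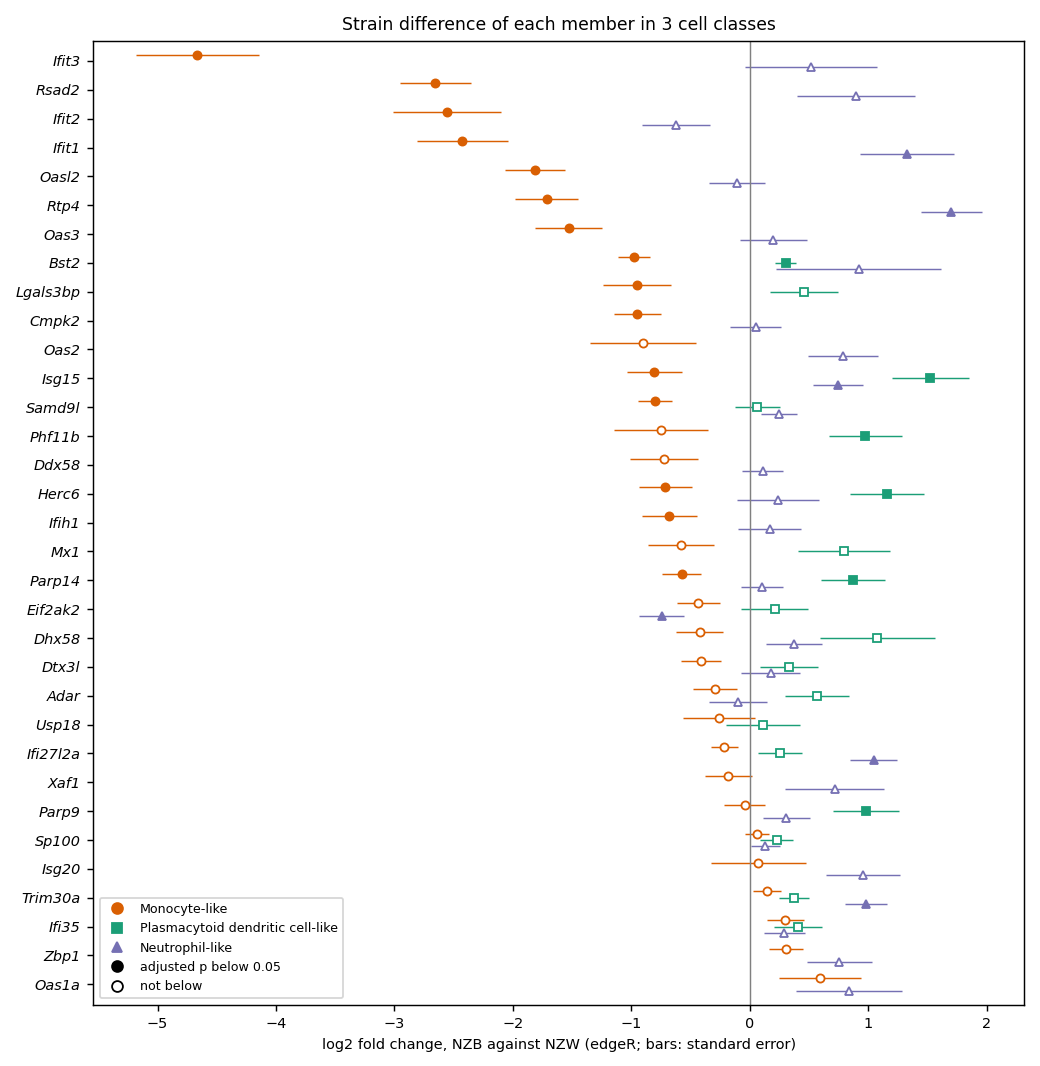
Log2 fold change of NZB against NZW with its standard error for the 33 members tested in monocyte-like cells and in at least 1 of the other classes drawn, with filled symbols for called values. Monocyte-like values (orange circles) reach -4.66 for Ifit3, and pDC-like values (green squares) lie right of 0.

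NZBWF1 was then compared with each parent. Against NZB, 21 of 185 tests were called, beside 3.65% of all tests over all genes. In monocyte-like cells 18 of 35 members were higher in NZBWF1 and none was lower, beside 7.69% of all genes called higher. The log2 fold change was 4.99 ± 0.51 for Ifit3, 2.53 ± 0.39 for Ifit1, 2.30 ± 0.33 for Rsad2, and 2.01 ± 0.25 for Oasl2. Isg15 was 1.18 ± 0.23 higher on the same scale. With the deeper barcodes 4 tests of a member in a class were called. In the monocyte-like cells with a division gene UMI, 1 of 20 members was higher, Cmpk2 (0.98 ± 0.27), and Phf11b (-1.71 ± 0.48) and Zbp1 (-0.86 ± 0.23) were lower, beside 5.88% of all genes called. Isg15 (-0.24), Ifi27l2a (-0.21), and Parp14 (-0.0064) changed sign there without being called. Ifi27l2a and Ddx58 were called here but not between the parents in this class. Ifi27l2a was at 645, 656, and 580 CPM in NZB, 640, 840, and 719 CPM in NZW, and 797, 938, and 1102 CPM in NZBWF1 (0.57 ± 0.12, edgeR adjusted p = 0.000887). Ddx58, which encodes the RNA sensor RIG-I, was at 17.0, 12.0, and 8.97 CPM in NZB, 15.6, 22.3, and 23.1 CPM in NZW, and 15.5, 24.1, and 30.7 CPM in NZBWF1, so that the strains overlapped (0.97 ± 0.29, edgeR adjusted p = 0.0164). Of the 18 calls, 13 stayed past the threshold with each mouse left out in turn. Those of Ddx58 (0.75 to 0.98) and Oasl1 (1.71 to 2.21) were lost without NZB replicate 2 or 3 or NZBWF1 replicate 2 or 3. That of Lgals3bp (0.84 to 0.93) was lost without NZB replicate 2 or 3 or NZBWF1 replicate 1, that of Phf11d (1.13 to 1.66) without NZB replicate 2 or 3 or NZBWF1 replicate 2, and that of Parp14 (0.53) without NZBWF1 replicate 2.

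In pDC-like cells 3 of 20 members were lower in NZBWF1 than in NZB, beside 1.28% of all genes called lower. They were Ifi44 (-1.03 ± 0.24), Isg15 (-0.97 ± 0.25), and Parp9 (-0.87 ± 0.23). Each of these calls was lost with certain mice left out, and each without NZBWF1 replicate 2, where Ifi44 was at -0.85, Isg15 at -0.63, and Parp9 at -0.60. These comparisons share the NZB mice with the comparison of the parents.

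Against NZW, no member was called in NZBWF1 in any class by edgeR, beside 1.12% of all tests over all genes. An unadjusted p below 0.05 was reached by 18 of 185 tests, beside 5851 of 67482 over all genes. DESeq2 called 1, edgeR with the replicate number as a block called 3, with every gene of at least 1 count 4, and with at most 5% mitochondrial UMIs 1. Leaving out NZB replicate 1, NZB replicate 3, or NZBWF1 replicate 3 gave 1 call, and leaving out NZBWF1 replicate 1 or 2 gave 2. In monocyte-like cells, where 1.06% of all genes were called, none of 35 members was. There 3 members had an unadjusted p below 0.05, beside 748 of 8622 genes. The 3 members were Ifi27l2a (0.35 ± 0.11), Zbp1 (0.41 ± 0.14), and Sp100 (0.29 ± 0.10), all with the higher value in NZBWF1. With 3 mice per strain, a missed threshold does not show that the hybrid and NZW were alike.

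Against the mean of both parents, the contrast of the hybrid itself, 9 of 185 tests were called and all 9 were higher in NZBWF1 monocyte-like cells. Of all tests over all genes, 0.559% were called, and in monocyte-like cells 1.38% of all genes were called higher. The members were Ifit3 (2.66 ± 0.34, edgeR adjusted p = 2.33e-05), Oasl2 (1.10 ± 0.19, edgeR adjusted p = 0.000546), Ifit1 (1.32 ± 0.28, edgeR adjusted p = 0.00545), Ifi27l2a (0.46 ± 0.10), Rtp4 (0.87 ± 0.21), Rsad2 (0.97 ± 0.24), Isg15 (0.77 ± 0.18), Samd9l (0.48 ± 0.12), and Cmpk2 (0.59 ± 0.16). The contrast averages the parents on the log scale, so a gene with 1 very low parent has a low reference, as for Ifit3. Against an arithmetic mean of the parents 5 remained called, with DESeq2 3, and with the deeper barcodes 1. In monocyte-like cells without a division gene UMI 3 of 35 members were called, beside 0.798% of all genes. In those with one edgeR called none of 20, beside 0.38% of all genes. An unadjusted p below 0.05 was reached by 6 of these 20, and its count over all genes is not given here. Leaving out NZBWF1 replicate 2 or replicate 3 left 2 of the 9 in monocyte-like cells.

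In some of these genes the hybrid lay above both parents. All 3 NZBWF1 values of Isg15 (62.0 to 69.0 CPM) and of Cmpk2 (43.7 to 48.1 CPM) exceeded the highest parental mouse (53.0 and 42.8 CPM). The call of Cmpk2 against both parents was lost with any mouse but NZB replicate 1 left out (0.54 to 0.63). That of Isg15 was lost without NZW replicate 1, NZW replicate 3, or any 1 NZBWF1 mouse (0.71 to 0.80). For Rsad2 all NZBWF1 mice lay below all NZW mice, and for Ifit3 and Ifit1 the hybrid and NZW overlapped. The effect of the hybrid differed between neutrophil-like and monocyte-like cells for 1 of 37 members, Ifit3 (3.02 ± 0.47), beside 0.0619% of all genes. It differed between early B-cell-like and monocyte-like cells for 1 of 35, Ifi27l2a (0.72 ± 0.12), beside 0.25%, and between monocyte-like and pDC-like cells for 1 of 33, again Ifi27l2a (-0.59 ± 0.12), beside 0.241%. Between neutrophil-like and early B-cell-like cells, edgeR called none of 31, beside 0.038%. Between monocyte-like cells with and without a division gene UMI it called Oas3 of 35 (-3.16 ± 0.69), beside 0.138%. Each of these counts of 1 fell to 0 with certain mice left out. Between neutrophil-like and monocyte-like cells it was 0 without NZB replicate 3 and 6 without NZBWF1 replicate 1. Between early B-cell-like and monocyte-like cells it was 0 without NZBWF1 replicate 2 and 2 without NZBWF1 replicate 1. Between monocyte-like and pDC-like cells it was 0 without NZBWF1 replicate 2 or 3, 3 without NZBWF1 replicate 1, and 2 without NZW replicate 3. Between cells with and without a division gene UMI it was 0 without NZB replicate 2, NZW replicate 2, or NZBWF1 replicate 1, 3 without NZB replicate 3, and 2 without NZW replicate 1.

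The other 12 members with a row were not called in any whole class in any of the 4 comparisons. Among them, Sp100 and Xaf1 were called in the monocyte-like cells with a division gene UMI, as given above, and Dhx58, Mx1, Oas2, and Ifit3b differed in effect between classes. Of these, Sp100 (329 CPM), Ifi35 (99.3 CPM), Dtx3l (64.2 CPM), and Adar (61.4 CPM), an RNA-editing enzyme, were well expressed in their highest class, Sp100 in T-cell-like cells and the rest in pDC-like cells. Their smallest adjusted p ranged from 0.0624 for Ifi35 to 0.22 for Adar. Mx1, a GTPase that traps viral nucleocapsids, was at 44.9, 32.2, and 38.6 CPM in NZB, 11.6, 34.5, and 21.9 CPM in NZW, and 7.81, 13.3, and 35.9 CPM in NZBWF1 pDC-like cells, so that 1 NZW and 1 NZBWF1 mouse lay within the NZB range and the others below it (log2 fold change of NZB against NZW 0.80 ± 0.39, edgeR adjusted p = 0.25). Usp18, the protease that removes ISG15, was at 19.3 to 53.6 CPM there. Dhx58, a relative of the RNA sensors, was at 23.9 to 45.2 CPM and Xaf1 at 25.9 to 42.9 CPM in monocyte-like cells. Oas1a, Oas2, Ifit3b, and Oas1g were low, with means of 11.6, 6.93, 2.54, and 0.77 CPM in their highest class, and neither of the last genes was tested in any class.

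Upstream of the members, 25 of 32 listed genes of the interferon pathway could be tested, in 174 tests. Between the parents 11 of these tests were higher and 7 lower in NZB, a share of calls close to the 9% over all genes. Tlr7, the endosomal receptor for single-stranded RNA, was higher in NZB pDC-like cells (0.90 ± 0.24, edgeR adjusted p = 0.00771). Irf7, the factor that amplifies interferon production, was higher in NZB in neutrophil-like cells (1.051 ± 0.23, edgeR adjusted p = 0.00689). Socs3, an inhibitor of cytokine signaling, was higher in NZB in monocyte-like (4.07 ± 0.87) and neutrophil-like (3.37 ± 0.41) cells. Irf8 was lower in NZB in monocyte-like (-0.81 ± 0.11, edgeR adjusted p = 8.52e-07), granulocyte-monocyte precursor-like (-0.80 ± 0.16), mature B-cell-like (-0.96 ± 0.19), and plasma cell-like (-3.59 ± 0.85) cells.

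In the hybrid, Irf7 was the only upstream gene called against the mean of both parents, higher in monocyte-like cells (0.82 ± 0.19, edgeR adjusted p = 0.0337). That is 1 of 174 tests, close to the 0.559% called over all genes. Against NZB, 5 upstream tests were higher and 6 lower in NZBWF1, beside 3.65% of all tests, with Irf7 at 1.14 ± 0.24 in monocyte-like cells. Against NZW only Irf8 was called, lower in monocyte-like cells (-0.41 ± 0.11), where it was higher than in NZB (0.40 ± 0.11). Transcripts of type I interferons themselves were close to absent, with no UMI of Ifna1, Ifna2, or Ifna4 and 1 of Ifnb1 in the kept barcodes. Of 18 GTPase genes that answer mainly to interferon gamma, 11 could be tested, in 51 tests. Between the parents 6 were higher and 4 lower in NZB, from 4 genes and beside 9% of all tests over all genes, and none was called in NZBWF1 against the mean of both parents by edgeR. Gbp7 was higher in NZB in 4 classes (2.19 to 3.01) and Gbp3 lower in 3 (-2.79 to -2.00).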

How the data were processed

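Bone marrow of 9 mice was profiled with the 10x Genomics 3' v3.1 chemistry. The authors demultiplexed reads with bcl2fastq (2.20), made counts with Cell Ranger (3.1.0) on mm10, per the submitters' processing notes, and merged the libraries. The deposited values are whole UMI counts per gene and barcode, not normalized. The annotation version and any thinning on merging are not given in the sources used here. The number after each barcode was matched to the line order of the deposited aggregation sheet, an order that the sources do not state.

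Barcodes were kept at 1000 or more UMIs and 500 or more genes, with no more than 10% of UMIs from the 13 mitochondrial genes. Classes needed at least 3 markers and a marker sum above a threshold set after marker counts were seen. A further 2899 barcodes that passed several gates were left out, which stood in for doublet removal, and 1462 passed none. Of the classed barcodes, 90.0% fell in the same class by a rank score. Counts were summed per class and mouse (at least 10 cells) and tested with edgeR (4.0.16) quasi-likelihood fits (TMM, filterByExpr, robust) in R (4.3.3), with 3 mice per strain and 1 shared spread. Standard errors are the log2 fold change over the root of F. Each member was given by mouse in the class of its smallest adjusted p, and those never called by level and range. The study's contrast of hybrid against both parents was kept. The tests were first tried on simulated data. The members, lists, and named genes were chosen with earlier results of these data known, and the splits by division genes, Treml4, and Ace, and the comparison of monocyte-like with pDC-like cells, were chosen after the data were seen. Alternatives were DESeq2 (1.42.0), other scaling, filters, gates, a replicate block, and each mouse left out. Same-numbered mice are different animals, and in no class did all 9 same-numbered pairs correlate above 0.1, so the numbers were not taken to pair them. However, 6 of 9 pairs did so in neutrophil-like and T-cell-like cells and 5 of 9 in NK cell-like cells. Why these mice deviated together was not tested. Intervals at 95% cover counting error only. Sequences came from RefSeq (GRCm38.p6), which gave a promoter for 30 members, and positions from GENCODE vM21, in which 31011 of the deposited features had an ID. Mx2 was not analysed here. Of the pathway list, some genes enter the counts and are not reported here by name.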

Additional observations from a re-analysis of the deposited data

Results flagged for a closer look

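Each result here is a difference in effect between classes that passed the test of the difference itself (edgeR, mouse as a block, adjusted p below 0.05 over all genes). Values are on the log2 scale, and the cause of the differences was not tested. Groups of 3 mice are too small for a test of outlying samples.

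For NZB against NZW, the value in pDC-like cells exceeded that in monocyte-like cells for 17 members. The widest gaps belonged to Trim30d (5.97), Rsad2 (4.38), Ifi44 (4.12), Ifit2 (3.55), and Ifit1 (3.28), of which several rest on few UMIs. Trim30d had 2 UMIs in NZB monocyte-like cells and 3 in NZW pDC-like cells, Ifi44 had 2 in NZB monocyte-like cells, and Rsad2 and Ifit1 had 9 and 13 in NZB against 1 and 3 in NZW pDC-like cells. Isg15 (2.37), Oasl2 (2.05), Herc6 (1.88), Phf11b (1.75), Dhx58 (1.48), Parp14 (1.46), Lgals3bp (1.40), Mx1 (1.35), Bst2 (1.30), and Parp9 (1.06) followed, with Samd9l (0.87) and Ifi27l2a (0.47) the smallest.

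The value in monocyte-like cells was below that in neutrophil-like cells for 15 members. Ifit3b stood at -7.07, a fitted value that is no bound because NZB monocyte-like cells had no UMI of it. The other IFIT genes were Ifit3 (-4.99), Ifit1 (-3.72), and Ifit2 (-1.93). Oasl1 (-3.48), Oas2 (-1.70), Oasl2 (-1.68), and Oas3 (-1.67) were the members of the OAS family among them. Rsad2 (-3.45), Rtp4 (-3.34), Isg15 (-1.54), Ifi27l2a (-1.23), Cmpk2 (-1.003), Samd9l (-0.998), and Trim30a (-0.83) completed the list.

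Early B-cell-like cells differed from neutrophil-like cells in Eif2ak2 (1.32) and Trim30a (-0.92). Monocyte-like cells differed from early B-cell-like cells in Ifit2 (-2.78), Lgals3bp (-2.33), Isg15 (-2.09), and Eif2ak2 (-1.13). The first 3 rest on few UMIs in the early B-cell-like cells of the NZB mice. In these mice Ifit2 had 4, 2, and 8 UMIs, Lgals3bp 7, 1, and 2, and Isg15 8, 2, and 4. For Lgals3bp and Isg15 replicate 1 had the most. Monocyte-like cells with a division gene UMI had a higher value than those without for Xaf1 (1.87), Phf11b (1.71), Zbp1 (1.09), Ifi27l2a (0.76), and Sp100 (0.67).

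For NZBWF1 against the mean of both parents, monocyte-like cells exceeded neutrophil-like cells in Ifit3 (3.02) and early B-cell-like cells in Ifi27l2a (0.72). The value of Ifi27l2a in pDC-like cells was 0.59 below that in monocyte-like cells (-0.59). Monocyte-like cells with a division gene UMI stood below those without for Oas3 (-3.16).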

How the results depend on the processing

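Counts of member calls kept within 1.5 times of the values in the report except as follows. Against both parents (9 calls) there were 14 with every gene of at least 1 count, 3 with DESeq2, 5 with the arithmetic mean, and 1 with barcodes of at least 2000 UMIs and 1000 genes. NZB against NZW (36) gave 22 with DESeq2 and 12 with the deeper barcodes, NZBWF1 against NZB (21) gave 4 with the deeper barcodes, and NZBWF1 against NZW (0) gave 4 with genes of at least 1 count, 3 with the replicate block, 1 with DESeq2, and 1 with at most 5% mitochondrial UMIs. In monocyte-like cells the deeper barcodes gave 5, 4, and 1 calls for NZB against NZW (17), NZBWF1 against NZB (18), and against both parents (9). Cells with a division gene UMI gave 6, 3, and 0 by edgeR, where fewer members could be tested. Against both parents, those without one gave 3, those also without Treml4 or Ace 5, DESeq2 2, and the arithmetic mean 5. In pDC-like cells (8) DESeq2 gave 3, the 5% mitochondrial limit 1, the deeper barcodes 0 by edgeR, the rank score 5, and cells without a division gene UMI 4. In neutrophil-like cells (6) the replicate block gave 9 and the deeper barcodes 2. Among differences between classes, neutrophil-like against early B-cell-like (2) gave 1 with RLE scaling and 6 with genes of at least 1 count. That last setting also gave 2 for early B-cell-like against monocyte-like cells (4), and for the hybrid 5, 2, and 3 between neutrophil-like, pDC-like, and division gene-positive cells and the other monocyte-like cells (1 each). With each mouse left out in turn, calls ranged from 24 to 40 (NZB against NZW), 17 to 24 (NZBWF1 against NZB), 0 to 2 (against NZW), and 3 to 11 (against both parents). In monocyte-like cells the ranges were 13 to 19, 15 to 20, and 2 to 11, in neutrophil-like cells 3 to 7, and in pDC-like cells 4 to 9. Differences between classes ranged over 9 to 17 (monocyte-like and pDC-like), 9 to 16 (neutrophil-like and monocyte-like), 1 to 5 (early B-cell-like and monocyte-like), 0 to 5 (neutrophil-like and early B-cell-like), and 1 to 7 (monocyte-like cells with and without a division gene UMI). For the hybrid these ranges ran from 0 to 3, 6, 2, 0, and 3. Of 1519 alternatives for single calls, 1285 kept direction and threshold, 227 kept direction only, and 7 reversed. Calls that a setting left untested are not among the 1519, and 592 of these were fits with a mouse left out. With the deeper barcodes 46 calls could be tested, of which 15 kept direction and threshold and 31 direction only. At the 5% mitochondrial limit 55 could be tested. Of the 66 calls, 32 held with every mouse left out. Bst2 in precursor-like cells, NZB against NZW, turned to 0.10 at the 5% mitochondrial limit. The other 6 reversals were in monocyte-like cells with a division gene UMI, for NZB against NZW Ifih1 0.47, Isg15 0.77, and Parp14 0.15, and for NZBWF1 against NZB Isg15 -0.24, Ifi27l2a -0.21, and Parp14 -0.0064. The replicate block ended none of the 66 calls. Same-numbered mice deviated together in part, most in neutrophil-like cells, where 6 of 9 pairs correlated above 0.1 (mean 0.174, against -0.087 for other numbers). There 7 of 9 mice correlated best with their own number. In monocyte-like and pDC-like cells 0 of 9 pairs passed 0.1. In these classes 4 and 6 of 9 mice correlated best with their own number. The sum of near-identical pairs changed none of the calls it could be made for. The cause of these changes was not tested beyond the fewer cells and genes that some settings leave.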
